A study of Mus musculus with 3 samples.

Results

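The genes described here are 9 members of the histone deacetylase and nuclear receptor corepressor machinery: Hdac1, Hdac2, Hdac3, Hdac4, Hdac5, Hdac7, Hdac9, Ncor1 and Tbl1xr1. They were chosen by gene symbol, without reference to a cut-off on their values, but with earlier results of these data known. Each symbol matched 1 gene ID, so 9 of 55536 annotated gene IDs, of which 22028 are protein-coding, are described. RNA of the chromatin fraction, depleted of ribosomal RNA, was sequenced from bone-marrow-derived macrophages, primary cells of C57BL/6J mice. The cells were held in Lipid A, the part of lipopolysaccharide that engages TLR4, at 100 ng per ml for 12 h, kept without it for 12 h after washing, and taken at minute 0 of renewed exposure. There are 3 replicates of this 1 condition and no untreated group, so every value is a level in this state. The labels list the same donor for all 3 and name no separate animals or cultures, so the spread between them may be partly technical.

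Histone deacetylases remove acetyl groups from histone tails and other proteins. The class I enzymes HDAC1 and HDAC2 work inside large complexes such as Sin3, NuRD and CoREST, whereas HDAC3 is active when bound to the corepressor scaffold NCOR1. The class IIa proteins HDAC4, HDAC5, HDAC7 and HDAC9 have little catalytic activity of their own, bind MEF2 transcription factors, and shuttle between nucleus and cytoplasm. TBL1XR1 is a WD40-repeat subunit of the NCoR complex that takes part in exchanging corepressor for coactivator. In macrophages this machinery is known for holding inflammatory genes in check before a Toll-like receptor signal arrives. RNA on chromatin is enriched for transcripts still being made or spliced, so annotated isoforms that keep an intron are given beside the coding ones.

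Expected counts summed to between 11958978 and 19475027 per library, and a count of 3 equals 0.154 to 0.254 CPM (counts scaled to the library total). The amount of RNA that went into a library was 1 µg for replicate 1, 250 ng for replicate 2 and 500 ng for the third. Macrophage markers were present in all libraries, with 15 of 15 genes at 1 TPM or more throughout and Ms4a7 the highest at 358 TPM on average. Fibroblast and stromal markers set replicate 3 apart: the 11 genes summed to 1.36, 2.93 and 673 TPM in replicates 1, 2 and 3, with Pdgfra at 0 in replicates 1 and 2. The markers of T cells, B cells, neutrophils, mast cells and basophils, dendritic cells and osteoclasts were each under 10 TPM on average. Among endothelial markers Vwf reached 26.8 TPM and among erythroid markers Alas2 reached 15.4 TPM, while Tie1 and Hba-a1 were listed at 0 in every library. TPM is a level scaled for transcript length and library total and summed over the annotated isoforms of a gene. In bulk RNA, fewer cells of a type and less RNA per cell cannot be told apart.

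All 9 genes were detected at 1 TPM or more in every library, a level that 46.1% of protein-coding genes reached. On average 6 of 9 were at 10 TPM or more, against 27.2% of protein-coding genes. The median log2(TPM + 1) was 4.20 over the 9 genes and 0.94 over protein-coding genes. Mean levels spanned 33.3-fold from Ncor1 at the top to Hdac9 at the bottom. Of 8 neighbouring pairs in the order of mean TPM, 4 had ranges over the libraries that overlapped and so did not differ beyond their spread: Hdac1 with Hdac5, Tbl1xr1 with Hdac3, Hdac7 with Hdac2, and Hdac2 with Hdac4. The other 4 steps, Ncor1 to Hdac1, Hdac5 to Tbl1xr1, Hdac3 to Hdac7 and Hdac4 to Hdac9, showed no overlap. This order is of gene TPM, and parts of it reversed over isoforms with a complete coding sequence. There Hdac9 was at 4.48, 4.45 and 4.71 TPM, above Hdac4 at 3.40, 3.90 and 4.24. Tbl1xr1, at 14.5 TPM on average, was above Hdac5 at 8.14.

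**Figure D1:**
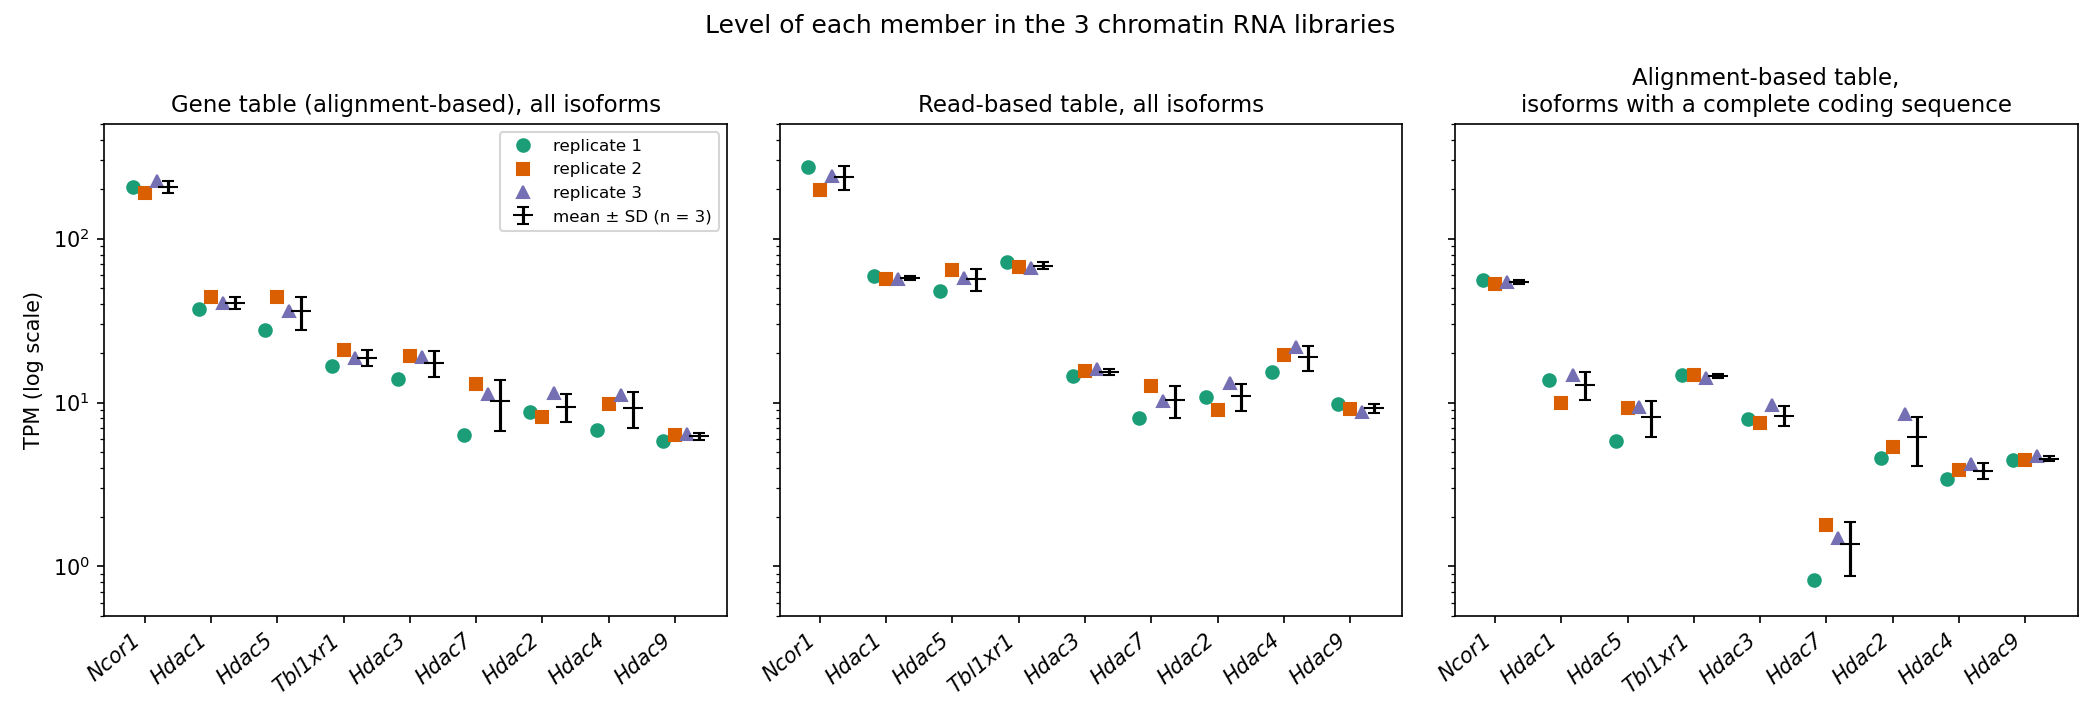
Level of each gene in TPM (log axis) in replicates 1 to 3 (points), with the mean and SD of the 3 libraries (black), from the gene table, from the read-based table, and from isoforms with a complete coding sequence only. Ncor1 is the highest in all 3 panels, Tbl1xr1 moves up in the read-based panel, and Hdac7 is the lowest in the complete coding panel at 1.37 TPM.

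Ncor1 encodes the scaffold that docks HDAC3 and binds unliganded nuclear receptors and other repressors. The gene (ENSMUSG00000018501.17) lies on the minus strand at chr11:62316426-62458541 of mm10 and has 25 annotated isoforms. Its level was 207 TPM in replicate 1, 189 in replicate 2 and 225 in replicate 3, a mean of 207 ± 18.1 (SD, n = 3) that ranked 180 among 22028 protein-coding genes. No library of any other member came near these values; Hdac1, the next gene, was 5.11-fold lower on average. Expected counts were 5498, 6351 and 8901.

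Much of the Ncor1 TPM came from short annotated pieces of the gene. Ncor1-207, a retained-intron model of 566 bases, held the most TPM of any isoform at 50.01, 36.1 and 43.6 in the 3 libraries, 20.9% of the gene's TPM on average, but only 2.96% of its expected counts. Ncor1-204, whose 7362-base coding sequence is the longest among the isoforms above 0 TPM, was at 22.7, 19.4 and 24.3 TPM and took 39.8% of the counts. Ncor1-205, with a coding sequence of 7158 bases, was at 6.91, 4.41 and 6.63 TPM and took 8.74%. Ncor1-203, which starts upstream and stops early with a coding sequence of 873 bases, was at 23.9, 24.8 and 23.2 TPM. A model counts for more in TPM when it is short, since TPM divides reads by length. By reads per kb of merged exons Ncor1 was still the highest of the 9 genes, and over isoforms with a complete coding sequence it was at 56.2, 52.8 and 54.1 TPM.

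**Figure D2:**
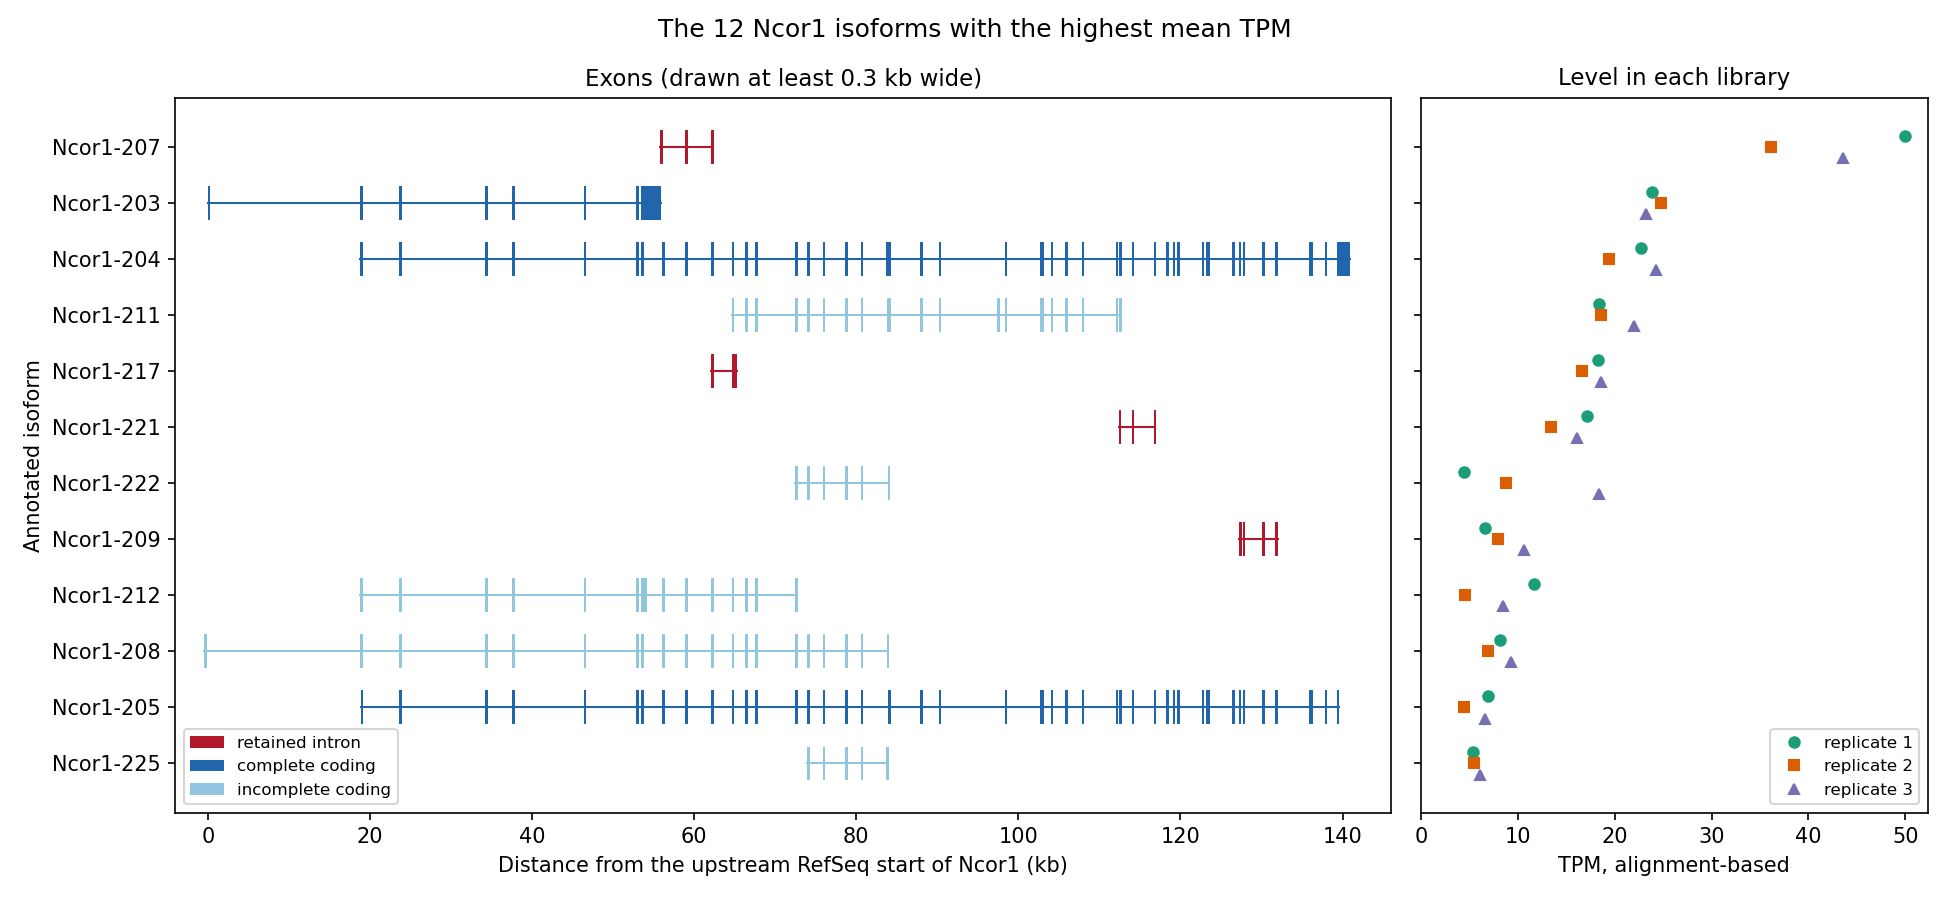
Exons of the 12 Ncor1 isoforms with the highest mean TPM, placed by distance in kb from the upstream RefSeq start (left, coloured by annotated class), and the alignment-based TPM of each in replicates 1 to 3 (right). The short retained-intron model Ncor1-207 lies highest, from 36.1 to 50.01 TPM, and Ncor1-204, which covers most of the gene, lies between 19.4 and 24.3 TPM.

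RefSeq gives Ncor1 a pair of starts, and the sequence before each is shown because annotated isoforms begin at both. The 120 bases before each start, 5′ to 3′ on the minus strand of GRCm38.p6 and from RefSeq, are as follows, with GC boxes (GGGCGG, either strand) and an ETS-type core (CCGGAAG, either strand) in capitals.
Ncor1 upstream start, chr11:62457333-62457452: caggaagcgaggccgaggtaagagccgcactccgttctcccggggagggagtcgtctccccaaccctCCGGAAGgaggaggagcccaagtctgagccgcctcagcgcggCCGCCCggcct
Ncor1 downstream start, chr11:62438516-62438635: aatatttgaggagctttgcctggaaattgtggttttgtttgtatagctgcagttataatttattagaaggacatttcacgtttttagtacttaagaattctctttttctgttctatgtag
The upstream window holds 12 CpG and is 70.8% G or C; the downstream window holds 1 CpG and is 30.8% G or C. Over all 32851 RefSeq windows of this length the medians were 3 CpG and 54.2%, a GC box was present in 26.5% and the ETS-type core in 4.99%. Isoforms beginning within 100 bases of the downstream start summed to 41.5, 30.0 and 40.8 TPM, and those of the upstream start to 23.9, 24.8 and 23.2 TPM. These sums were 18.0% and 11.7% of the gene's TPM on average, so most of it was in models that begin at neither. The base at the downstream start is also the first base of an inner exon in 4 other Ncor1 isoforms, and the last bases before it are AG, the letters that end most introns. Those reads therefore do not tell a transcript that begins there from one spliced into that exon, and the 2 sums are levels of annotated models rather than of promoter use.

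Tbl1xr1 encodes the exchange subunit of the complex. The gene (ENSMUSG00000027630.13) is on the plus strand at chr3:22076652-22216594 and its level was 16.8, 20.9 and 18.6 TPM (18.8 ± 2.03, SD, n = 3). In the read-based table, which estimates abundance from the reads without the deposited alignment, it was 72.3, 66.8 and 66.5 TPM, a mean 3.65-fold higher. Among the 9 genes, 2 were more than 2-fold higher in the read-based table, Tbl1xr1 and Hdac4, against 17.9% of protein-coding genes at 1 TPM or more. The excess in Tbl1xr1 sat in 4 short models with an incomplete coding sequence, which summed to 54.3, 47.0 and 46.1 TPM in the read-based table and to 1.28, 0.87 and 1.03 in the alignment-based one. These 4 models held 12.7% of the gene's read-based estimated counts. Over isoforms with a complete coding sequence the tables gave closer values, 14.5 ± 0.374 TPM alignment-based and 13.1 ± 0.694 read-based (SD, n = 3), with Tbl1xr1-203 the main coding isoform in both. By reads per kb of merged exons Tbl1xr1 ranked 2 of 9, above Hdac1, so its place just above Hdac3 in the order of gene TPM belongs to that unit.

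Among the class I enzymes Hdac1 was the highest. The gene (ENSMUSG00000028800.15) is on the minus strand at chr4:129516104-129542713, and its level was 37.1, 44.1 and 40.25 TPM (40.5 ± 3.49, SD, n = 3). It has 1 complete coding isoform, Hdac1-201, at 13.8, 9.98 and 14.8 TPM, and 6 isoforms annotated with a retained intron, which took 62.9%, 77.4% and 63.2% of the gene's TPM. Replicate 2 thus had the highest gene TPM and the lowest coding isoform. In the read-based table replicate 2 again had the lowest coding isoform, at 13.5, 8.28 and 13.0 TPM, with retained-intron shares of 77.2%, 85.3% and 77.0%, but the gene TPM was highest in replicate 1, at 59.3, 56.4 and 56.5.

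Hdac3 encodes the catalytic subunit that NCOR1 activates. The gene (ENSMUSG00000024454.16, minus strand, chr18:37935844-37955016) was at 13.9, 19.3 and 19.05 TPM (17.4 ± 3.06, SD, n = 3). Its 1 complete coding isoform, Hdac3-201, was at 7.90, 7.47 and 9.61 TPM. In replicate 1 this isoform was thus above replicate 2 but below replicate 3, whereas the gene total was lowest in replicate 1. Retained-intron models took 50.6% of its TPM on average and 51.5% of its expected counts. The TPM and count shares were thus close for this gene, whose retained-intron models are of 1040, 1811 and 3585 bases and whose coding one is of 2032.

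Hdac2 encodes the close relative of HDAC1. The gene (ENSMUSG00000019777.16, plus strand, chr10:36974544-37001889) was at 8.74, 8.11 and 11.5 TPM (9.45 ± 1.80, SD, n = 3), highest in replicate 3. The full-length coding isoform Hdac2-201, with a coding sequence of 1464 bases, was at 2.02, 2.19 and 4.95 TPM, and Hdac2-202, with 912 bases, at 2.58, 3.19 and 3.54. The most abundant isoform on average was Hdac2-203, a retained-intron model of 539 bases, at 4.14, 2.73 and 3.01 TPM, which took 47.4%, 33.7% and 26.2% of the gene's TPM. Replicate 3 stood above both others in the full-length form and in the gene total, whereas Hdac2-203 was highest in replicate 1. This is the library in which stromal markers summed to 673 TPM, and their part in the Hdac2 level was not tested; without it the Hdac2 mean was 8.425 TPM.

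Of the class IIa genes Hdac5 was the highest. The gene (ENSMUSG00000008855.17, minus strand, chr11:102194432-102230166) was at 27.6, 44.2 and 36.2 TPM (36.0 ± 8.32, SD, n = 3), lowest in replicate 1. It has 20 annotated isoforms, 10 of them with a retained intron, and its 4 complete coding isoforms together were at 5.83, 9.23 and 9.37 TPM, 22.6% of the gene on average. The most abundant models were Hdac5-210 at 3.62, 6.54 and 4.43 TPM, Hdac5-217 and Hdac5-216, each annotated with a retained intron. Hdac5-216 is 5406 bases long, keeps several introns whole, and held 32.4% of the gene's expected counts. The read-based table placed 15.4 TPM on average in Hdac5-206, a processed transcript of 493 bases that the alignment-based table put at 0.347 TPM.

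Hdac7, which represses MEF2 targets and is known from thymocytes and endothelium, varied most between libraries by TPM. The gene (ENSMUSG00000022475.19, minus strand, chr15:97792664-97844502) was at 6.32, 13.0 and 11.35 TPM (10.2 ± 3.48, SD, n = 3). Its 8 complete coding isoforms together reached 0.83, 1.79 and 1.49 TPM, the lowest coding level of the 9 genes. Most of the TPM, 59.0%, was in Hdac7-211, a model of 1572 bases near the 3′ end, at 3.50, 8.26 and 6.58 TPM, and 19.5% was in Hdac7-213, a model of 5179 bases that keeps 1 intron of 1273 bases. Replicate 1 was lowest for the coding isoforms and for both retained-intron models. At its 3′ end Hdac7 overlaps the opposite gene Slc48a1 by 29 bases, and that gene was at 11.1, 25.15 and 20.5 TPM, also lowest in replicate 1. Whether strand was used in counting is unknown from the labels and headers, and any part of the overlap in the values was not tested.

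Hdac4 and Hdac9 were the lowest class IIa genes by mean gene TPM and are long, at 266.9 and 869.5 kb. The range of Hdac4 overlapped that of Hdac7, which in replicate 1 was at 6.32 TPM against 6.75 for Hdac4. Hdac4 (ENSMUSG00000026313.16, minus strand, chr1:91928779-92195699) was at 6.75, 9.86 and 11.2 TPM (9.26 ± 2.27, SD, n = 3), with its 2 complete coding isoforms Hdac4-202 at 1.56, 1.93 and 2.47 and Hdac4-201 at 1.84, 1.97 and 1.77 TPM. Hdac4 rose to 18.9 ± 3.32 TPM in the read-based table, where processed transcripts took 38.9% of its TPM and 8.29% of its estimated counts. Hdac4-209, at 0.93, 1.27 and 0.92 TPM, lies within the span of Gm26720, a long non-coding gene on the opposite strand at 0.11, 0.13 and 0.45 TPM, and reads of the pair cannot be told apart without strand.

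Hdac9 (ENSMUSG00000004698.10, minus strand, chr12:34047580-34917095) had the smallest spread by TPM, at 5.86, 6.32 and 6.44 TPM (6.21 ± 0.306, SD, n = 3). Its complete coding isoforms took 73.2% of TPM on average in the alignment-based table and 50.8% in the read-based one. In the latter the incomplete coding model Hdac9-202 held 36.8%. The 1 retained-intron model, Hdac9-209, was at 0.85, 1.22 and 1.20 TPM. The complete coding isoforms fall into 3 with a coding sequence of 1632 to 1764 bases and 4 with one of 2808 to 3201 bases. The short forms of this gene are known to lack the deacetylase domain. In the alignment-based table the short group was at 3.06, 3.18 and 3.73 TPM and the long group at 1.42, 1.27 and 0.98 TPM, with no overlap between groups. The read-based table put them closer, at 3.17, 2.33 and 2.84 TPM for the short group and 1.49, 1.89 and 2.29 TPM for the long group, 2.33 against 2.29 where the groups came nearest. By counts the tables differed in which form led. Hdac9-205, a long form, held 52.2% of read-based estimated counts and 6.88% of expected counts. Hdac9-201, a short form, held 17.3% and 37.1%.

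Some of the retained-intron models run from an exon into the start of an intron, and the bases there are shown for several of them. Hdac5-219 and Hdac7-213 keep the intron shown whole, of 305 and 1273 bases. The other models shown keep only its start. Each line gives 15 bases of exon in lower case and the first 15 bases of the intron in capitals, 5′ to 3′ on the gene's strand, from the GENCODE M21 transcript sequences on mm10.
Hdac1-207, chr4:129522948-129522977: cctggaactgctaaaGTATGCCTGCCTGGC
Hdac1-204, chr4:129528912-129528941: agcagatgcagagatGTAAGTATGTTCCCT
Ncor1-217, chr11:62392490-62392519: gatctttaaggacaaGTAATTTTAACTGTT
Hdac5-219, chr11:102199351-102199380: gcaggagagctcaagGTAAGGATGTATAAG
Hdac7-213, chr15:97802061-97802090: tgtggcggggttgggGTGAGTATGCCTGGA
Hdac9-209, chr12:34437122-34437151: caggagcacatcaagGTAGCAAATGTGTCT
In each of these lines the capitals open with GT, the letters that begin most introns, and coding isoforms are spliced at that base. A junction of Hdac5-216, not shown, opens with GC. Ncor1-207 instead begins inside an intron and runs into the exon after it, so the lines do not describe every retained-intron model. Hdac1-207 runs into an intron of 458 bases and was at 5.86, 8.39 and 6.84 TPM. Hdac1-204 runs into one of 4606 bases and was at 6.64, 6.06 and 5.80 TPM. Ncor1-217 runs into one of 1471 bases and was at 18.3, 16.6 and 18.6 TPM. A read across such a junction comes from RNA not yet spliced there or from a stable unspliced form, and the tables do not separate these.

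Across the 9 genes, the share of TPM in isoforms annotated as retained intron or processed transcript ranged widely. In the read-based table it was highest in Hdac5 at 83.6%, Hdac1 at 79.9% and Hdac7 at 67.3%, and lowest in Hdac9 at 9.29% and Tbl1xr1 at 5.36%. The share was over 50% in 5 of 9 genes, against 58.2% of the protein-coding genes at 1 TPM or more that have such an isoform. The median was 56.3% over the 9 genes and 56.2% over the 9846 genes of that background, so these genes were near the background. In the alignment-based table it was over 50% in 4 of 9, against 48.7%, with medians of 43.5% and 49.3%. Tbl1xr1 has no isoform annotated with a retained intron, and its share is of processed transcripts only.

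**Figure D3:**
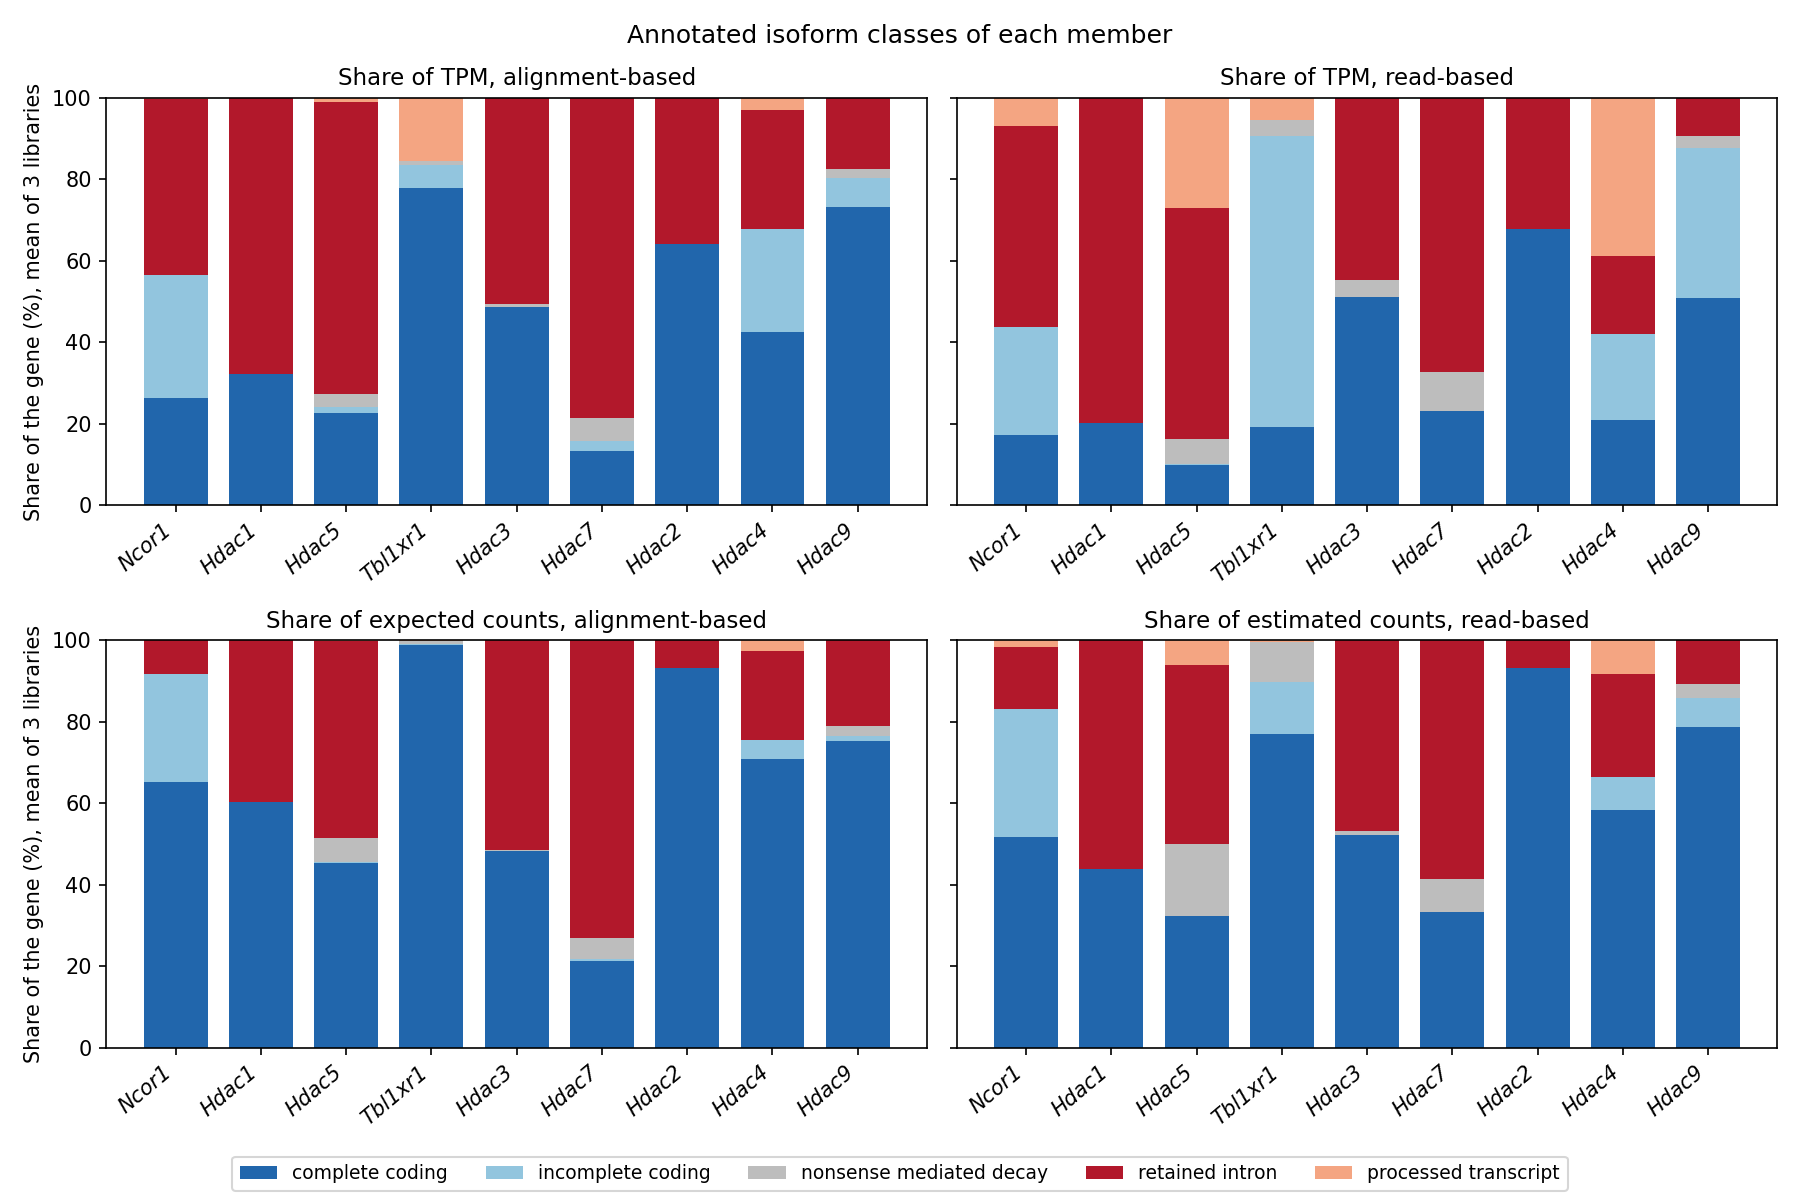
Mean share over 3 libraries of each gene's TPM (top) or counts (bottom) in 5 annotated isoform classes, alignment-based (left) and read-based (right). Retained-intron models take most of the TPM of Hdac1, Hdac5 and Hdac7 in both tables. By counts complete coding isoforms lead in both tables in Ncor1, Tbl1xr1, Hdac2, Hdac4 and Hdac9.

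By counts, which do not divide by length, the shares were lower for most genes. The non-coding share of read-based estimated counts was 16.8% in Ncor1, 56.2% in Hdac1, 50.1% in Hdac5 and 58.7% in Hdac7. In the alignment-based table Hdac7 kept the highest share by either unit, 78.5% of TPM and 73.0% of expected counts. The non-coding share of TPM was highest in replicate 2 in 7 of 9 genes of the alignment-based table, against 44.4% of all genes there. In the read-based table it was highest in replicate 2 in 3 of 9, against 40.7%. Replicate 2 had the smallest amount of starting RNA, and the part of that in the shares was not tested.

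Variation between the libraries was tested gene by gene against genes of like abundance (edgeR quasi-likelihood fit on expected counts, upper-tail F test, Benjamini-Hochberg adjustment over all genes). At an adjusted p under 0.05, 0 of 9 genes varied more than the trend, against 0% of 14839 genes tested. At an unadjusted p under 0.05 it was also 0 of 9, against 5.03%. The count filter kept only genes with enough counts in every library, so genes found almost only in a single library were not tested. Col1a1, a stromal marker at 1, 34 and 14624 expected counts, was among those left out. The 0% is therefore a share of the genes that passed this filter. The lowest p was that of Hdac7, 0.136 before and 0.992 after adjustment in the edgeR fit. In simulated libraries with 1 of 3 changed, this test found 0% of 2-fold and 92% of 4-fold changes, so a 2-fold difference in 1 library was not detectable with it. The simulation set the coefficient of variation between replicates at 0.15, below the 0.212 estimated in these data. It changed only genes with a mean of at least 50 counts. The share found at 4-fold may therefore not hold for these libraries.

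By CPM scaled with TMM, a factor that aligns the bulk of genes between libraries, Hdac7 was at 16.1, 25.8 and 22.4. Replicate 1 was 0.68 log2 units below replicate 2 (log2 ratio -0.68), outside the 10th to 90th percentile of all genes from -0.53 to 0.51. Hdac5 was at 51.0, 71.3 and 61.1 CPM, a log2 ratio of -0.48 between the same libraries. These were the 2 of 9 genes with a log2 ratio over 0.4 either way for that pair, against 31.1% of all genes. Hdac2 was at 12.6, 12.2 and 17.4 CPM, with log2 ratios of -0.46 for replicate 1 over 3 and -0.52 for replicate 2 over 3. For those pairs 2 of 9 and 1 of 9 genes passed 0.4, against 31.5% and 26.2%.

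**Figure D4:**
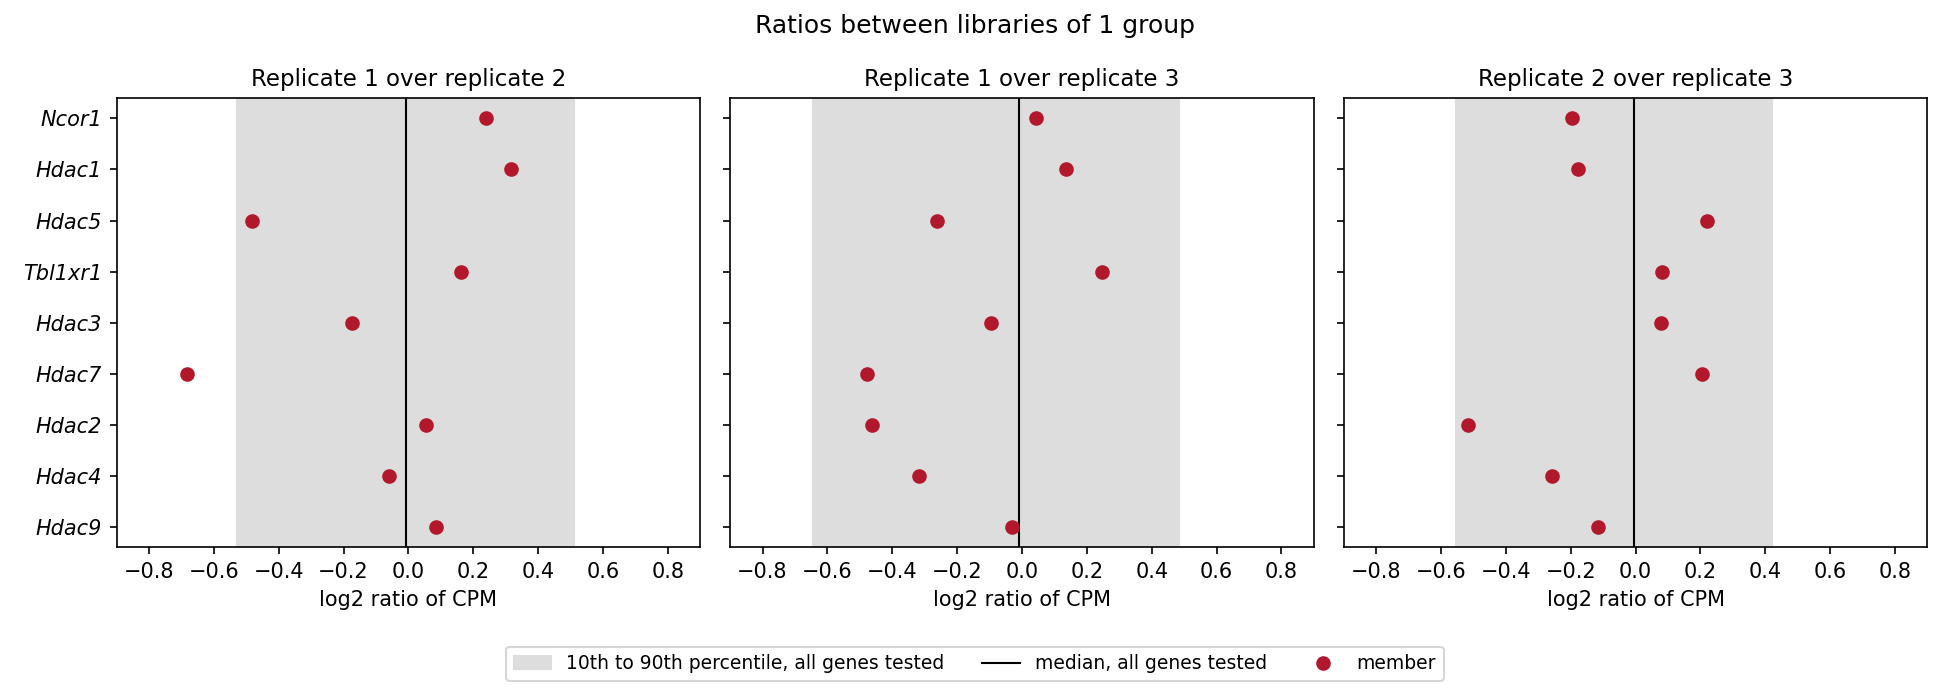
Log2 ratio of TMM-scaled CPM of each gene between each pair of libraries (points), with the median (line) and the 10th to 90th percentile (grey) of the 14839 genes tested. Hdac7 at -0.68 for replicate 1 over 2 is the one point outside the grey band.

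The order of libraries depended on the unit for some genes. By TPM replicate 1 was lowest in 7 of 9 genes and highest in none. By TMM-scaled CPM it was lowest in 4 of 9, namely Hdac3, Hdac4, Hdac5 and Hdac7, and highest in 3 of 9. Hdac1 was lowest in replicate 1 by TPM, at 37.1, and highest there by CPM, at 38.1 against 30.6 and 34.7. Tbl1xr1 likewise was lowest there by TPM and highest by CPM, at 103 against 92.1 and 87.0. Hdac5 and Hdac7 were lowest in replicate 1 on both scales.

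The partners of these genes were present too. In this and the next lists, counts of genes at 10 TPM or more stand against 27.2% of protein-coding genes. Of 5 other NCoR complex genes, 4 were at 10 TPM or more, and Kdm4a, a histone demethylase, was the highest at 35.1, 46.9 and 45.8 TPM (42.6 ± 6.51, SD, n = 3). The lowest of that list was Zbtb33, the DNA-binding protein Kaiso, at 4.37 ± 0.562 TPM (SD, n = 3). Of 16 repressors and receptors that bind NCoR, 6 were at 10 TPM or more; Nr1h3, the oxysterol receptor LXRα, led at 67.1 ± 8.67 TPM (SD, n = 3) and Ppara was listed at 0 in every library.

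Complexes that hold HDAC1 and HDAC2 were represented throughout. In the Sin3 list 11 of 15 genes were at 10 TPM or more, from Arid4a at 71.8 to Sap30l at 2.67 TPM on average. In NuRD 8 of 9 were, from the remodeller Chd4 at 90.9 to Mbd3 at 7.24 TPM, and in CoREST 8 of 9, from Hmg20b at 89.8 to Rcor2 at 0.58 TPM. Of the MiDAC list 2 of 3 genes were matched, Elmsan1 at 27.8 and Dnttip1 at 16.6 TPM.

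Of the class IIa partners, which include MEF2 factors and the kinases and 14-3-3 proteins that control nuclear export, 12 of 18 were at 10 TPM or more. The calcium-dependent kinase Camk1 was at 71.2, 96.1 and 100.2 TPM and its relative Camk4 at 0.08 TPM on average. Of the 4 remaining HDAC genes 2 were at 10 TPM or more, from Hdac10 at 11.4 ± 2.14 to Hdac11 at 0.97 ± 0.495 TPM (SD, n = 3). Of 7 sirtuins, the NAD-dependent deacetylases, 6 reached 10 TPM, from Sirt7 at 116 to Sirt5 at 7.72 TPM. All 10 histone acetyltransferases, the opposing enzymes, reached it, from Ep300 at 101 to Hat1 at 13.8 TPM. In none of these lists did a gene vary more between libraries than the trend (edgeR, adjusted p under 0.05). At an unadjusted p under 0.05 there was 1 of 15 genes in Sin3 and 1 of 9 in CoREST, against 5.03% of all genes tested.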

How the data were processed

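Total RNA of the chromatin fraction was measured in 3 libraries of 1 group, so no groups were compared. Per the deposited README texts, gene tables and alignment-based transcript tables come from a transcriptome alignment to mm10 with GENCODE M21, and read-based tables from reads and an index. Programs, versions and use of strand: not given in the sources used here. The authors deposited expected counts without normalization, read-based estimated counts, and TPM scaled to all rows of each table. Isoform percent of a gene was deposited by the authors too, and shares were recomputed here from TPM and counts. Rows naming no gene held 1.31%, 0.476% and 0.240% of counts and were left out.

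Levels are the deposited gene TPM. Isoforms were classed by annotated type, and protein-coding ones as complete or incomplete by annotation tags. Counts were rounded and fitted with edgeR 4.0.16 in R 4.3.3 (TMM, filterByExpr, intercept only); CPM ratios used 0.1 added. Python 3.11.15, numpy 2.4.6, pandas 2.3.3 and matplotlib 3.10.9 did the rest. The test was tried on simulated counts for 14629 genes, where it made 0 calls among 14429 unchanged ones. No 2 libraries were duplicates (chi-square of counts over degrees of freedom, 39.1 to 72.0). A permutation test over 3 libraries cannot go below 0.25, and none was run. RefSeq starts were matched for 7 of 9 genes (12 starts).

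The members and lists were chosen with earlier results of these data known. Named are every member, the highest and lowest gene of each list, the highest marker of each cell type that bears on a statement, the markers at 0 given beside them, and isoforms holding at least 10% of a gene. Hdac5-219, Hdac9-210, Ncor1-205, Ncor1-217 and the overlapping genes were named after their values were seen. Alternatives were the read-based tables, other scalings, filters, pseudocounts and class definitions, and each replicate left out. A gene of the NCoR list is not reported here. A planned comparison of protein sequences was not run.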

Additional observations from a re-analysis of the deposited data

How the results depend on the processing

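No paired analysis was possible because the labels give 1 group, so no replicate number is shared between groups. In every alternative run, 0 of 9 genes varied more than the trend in the edgeR fit; without replicate 3, Hdac7 reached an unadjusted p of 0.0359 and an adjusted p of 0.799. Over all genes, 0 passed with TMM, RLE scaling, a mean of at least 50 counts or nuclear protein-coding genes only. There were 49 with no filter, 10 on read-based estimated counts and 24 with a robust prior, which was added after seeing the data; leaving out 1 replicate gave 0 to 73 (8 without replicate 1, 0 without replicate 2, 73 without replicate 3). The number of genes at 10 TPM or more was 6, from 5 to 7 with a replicate left out, 8 read-based and 9 with TPM rescaled to the sum of long non-coding and nuclear protein-coding genes, but 3 over complete coding isoforms, an alternative added after seeing the data. The median log2(TPM + 1) of 4.20 became 5.33 with that rescaling and stayed between 4.13 and 4.34 otherwise. The median non-coding share of 56.3% became 43.5% in the alignment-based table, 33.6% by estimated counts and 76.9% with incomplete coding models counted as non-coding, also added after seeing the data; without 1 replicate it was 55.4% to 57.1%. The level of a gene moved beyond its SD in 15 of 45 alternatives, all from the read-based table or the rescaling, and its log2 ratios between libraries in 2 of 54. Ncor1 ranked 1 of the 9 genes by gene TPM, read-based TPM, complete coding isoforms and expected counts per kb of merged exons, the last 2 added after seeing the data; Tbl1xr1 moved from 4 to 2 in all 3 alternatives, Hdac4 from 8 to 5 read-based, and Hdac7 from 6 to 8 read-based and to 9 by complete coding isoforms. Counting error limits Hdac2, Hdac7 and Hdac9 most, with as few as 151, 192 and 193 expected counts in a library.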

Other observations

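Several annotated genes inside the introns of these genes, or overlapping their ends, were assigned TPM separately. Gm47357, a sense-intronic RNA in Hdac9, was at 5.68, 6.15 and 4.90 TPM in replicates 1, 2 and 3, against 5.86, 6.32 and 6.44 TPM for Hdac9 itself. Gm5842, a processed pseudogene on the opposite strand in Tbl1xr1, was at 30.0, 25.3 and 23.2 TPM, above Tbl1xr1 in every library on the same length-scaled unit. Gm12276, a processed pseudogene of 301 bases opposite to Ncor1, was at 15.5, 22.4 and 15.15 TPM from only 19, 21 and 20 expected counts. Ttc19, a protein-coding gene whose span overlaps the 3′ part of Ncor1 by 12026 bases on the opposite strand, was at 12.6, 13.3 and 14.2 TPM, and Pigl, which overlaps the 5′ end by 82 bases, at 1.86, 2.05 and 1.84 TPM. The source of the reads at these places was not tested.

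Of the 12 RefSeq starts matched, 4 had a GC box in the 120 bases before them, those of Hdac2, Hdac4, Hdac5 and the upstream start of Ncor1, against 26.5% of all 32851 windows. The start of Hdac9-210 was the 1 with a TATA box (TATAAA, either strand), against 6.34% of windows, and this isoform was at 0, 0.13 and 0.27 TPM.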
